A study of Homo sapiens with 2 samples.

Results

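The miR-371 to miR-373 cluster is a group of microRNAs (miRNAs, short RNAs that repress messenger RNAs through a seed near their 5′ end) on the long arm of human chromosome 19. It is active in human embryonic stem cells and in germ cell tumours and is silenced as cells differentiate. miR-372-3p and miR-373-3p are known for repressing the tumour suppressor LATS2 in germ cell tumours, and miR-371a-3p in serum is used as a marker of those tumours. miR-372-3p and miR-373-3p carry the seed of the miR-302 family, the other miRNA group of pluripotent cells. In miR-371a-3p and miR-371b-3p the core of that seed, AAGUGC, lies nearer the 5′ end. The 5p arms are less studied.

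The cluster's 8 mature miRNAs were followed in exosomes, small vesicles shed by cells, of HuH-7, a human hepatocellular carcinoma line. They were found by their names in the scanner output of the arrays, where each had 1 spot among 2565 miRNA probes. The samples were exosomes of the HuH-7-M culture and exosomes of the HuH-7-P culture, 1 array each. The labels do not spell out M and P and name no other difference between the cultures, and the series title concerns cell lines of liver cancer with high intrahepatic metastasis. Both cultures were grown in medium with 10% fetal bovine serum and changed to advanced DMEM before the vesicles were filtered and pelleted at 110000 g. With 1 array per culture there was no replicate and no test, so culture, vesicle preparation, labelling and array cannot be told apart, and a difference is given only as higher or lower.

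The sequences of all 8 miRNAs were matched by name in RefSeq (GRCh38.p14) and are shown because the 2 arms gave unlike signals. The 5p arms, with the seed (bases 2 to 8) in capitals, read as follows from 5′ to 3′.
hsa-miR-371a-5p: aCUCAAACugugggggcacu
hsa-miR-371b-5p: aCUCAAAAgauggcggcacuuu
hsa-miR-372-5p: cCUCAAAUguggagcacuauucu
hsa-miR-373-5p: aCUCAAAAugggggcgcuuucc
The 3p arms, marked in the same way, were these.
hsa-miR-371a-3p: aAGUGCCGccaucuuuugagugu
hsa-miR-371b-3p: aAGUGCCCccacaguuugagugc
hsa-miR-372-3p: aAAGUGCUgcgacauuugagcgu
hsa-miR-373-3p: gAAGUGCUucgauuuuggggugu

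All 4 of the 5p arms share CUCAAA at bases 2 to 7, which only 5 of the 2253 miRNAs with both a probe and a RefSeq sequence have (0.222%). The fifth is miR-616-5p, encoded on chromosome 12. miR-371b-5p and miR-373-5p have the same full seed, as do miR-372-3p and miR-373-3p. All 4 of the 3p arms hold AAGUGC within their first 8 bases, found in 26 of the 2253. These counts were made on the RNA strand only. The 5p arms differ from each other by 6 to 8 edits and the 3p arms by 5 to 10, so no member repeats another.

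The genes lie within 1099 bases, at chr19:53787675-53788773. MIR371A, MIR372 and MIR373 are on the plus strand, with 147 bases between the MIR371 hairpins and MIR372 and 748 between MIR372 and MIR373. MIR371B lies on the minus strand and shares 65 bases with MIR371A, so the miR-371a and miR-371b arms are antisense to each other: miR-371a-5p is complementary to miR-371b-3p over 20 bases, and miR-371b-5p to miR-371a-3p over 21. The annotated lncRNA LOC124904767 overlaps the start of the cluster, and the next protein-coding gene is NLRP12, an innate immune sensor, 4811 bases further on. The hairpins of this antisense pair, with the mature arms in capitals, are shown because the member that differed most between the arrays is one of these arms.
MIR371A: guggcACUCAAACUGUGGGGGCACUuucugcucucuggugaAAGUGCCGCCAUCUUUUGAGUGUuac
MIR371B: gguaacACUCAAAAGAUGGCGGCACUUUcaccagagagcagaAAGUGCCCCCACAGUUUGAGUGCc

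The 5p arms of MIR371A, MIR371B and MIR373 stood well above the control spots of both arrays, and the 3p arms lay within or below the range of the No Probe control spots. Net signal, in arbitrary units, is what remains of a spot median once the average of the 320 BLANK spots is taken off. The BLANK limit lies 2 SD over the BLANK average, both taken without the top and bottom 5% of those spots, and was a net signal of 2.42 on HuH-7-M, against 2.60 on HuH-7-P. A miRNA above it on both arrays was called measured. The 85 spots labelled No Probe were brighter than BLANK, and the limit drawn from them in the same way was 31.2 on HuH-7-M, against 27.2 on HuH-7-P. Probes bind with unlike efficiency, so each is read against the control spots and not against another probe.

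Of the 8 members 5 were measured, against 62.1% of all miRNA probes, and 3 passed the No Probe limit on each array, against 30.8% of all. Neither share sets the cluster apart from the array as a whole. The 3 were all 5p arms: 3 of 4 of the 5p arms and 0 of 4 of the 3p arms passed the No Probe limit on each array. Over the whole array this was so of 36.5% of the 866 probes named 5p and 23.8% of the 883 named 3p. Among 810 miRNAs with both arms on the array, the 5p arm alone exceeded that limit in 174 (21.5%) and the 3p arm alone in 71 (8.77%).

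miR-371a-5p had a net signal of 260 on HuH-7-M, against 279 on HuH-7-P. Both spots exceeded every BLANK and every No Probe spot of their array, and the values were close to equal. miR-371b-5p, from the opposite strand, had 169 on HuH-7-M, against 98.9 on HuH-7-P, a ratio of 1.71 before scaling between the arrays. miR-373-5p, which shares the seed of miR-371b-5p, had 126 on HuH-7-M, against 123 on HuH-7-P. These 2 probes also exceeded all control spots of both kinds. Of this pair with a shared seed, miR-371b-5p had the higher signal on HuH-7-M and miR-373-5p had nearly equal signals.

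miR-372-5p had a net signal of -2.43 on HuH-7-M, against 4.00 on HuH-7-P. It was above the BLANK limit on HuH-7-P only, where 3 of 320 BLANK spots were at least as bright, and all 85 No Probe spots of each array were brighter. Its signal on HuH-7-P was at least 1.02-fold that on HuH-7-M after quantile normalization and at least 1.54-fold on the scale of the Spike Control spots. These bounds compare the HuH-7-P value with the dimmest HuH-7-M signal still above the BLANK limit. Each rests on 1 spot per array near the BLANK level and has no measured spread.

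Among the 3p arms, miR-371b-3p had 23.3 on HuH-7-M, against 21.9 on HuH-7-P. It was above the BLANK limit on both arrays and within the range of the No Probe spots, 35 of which were at least as bright on HuH-7-M, against 24 on HuH-7-P. miR-373-3p had 4.59 on HuH-7-M, against 6.43 on HuH-7-P, just above the BLANK limit on both. miR-371a-3p, the germ cell tumour marker, had 4.85 on HuH-7-M, against 0.557 on HuH-7-P. It passed the BLANK limit on HuH-7-M only, where 2 BLANK spots were at least as bright, and its HuH-7-M signal was at least 1.04-fold that on HuH-7-P. That bound does not hold on the scale of the Spike Control spots. miR-372-3p had 0.154 on HuH-7-M, against -1.18 on HuH-7-P, and was not above the BLANK limit on either array. A probe at the BLANK level was not detectable here, which does not show that the RNA is absent.

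**Figure D1:**
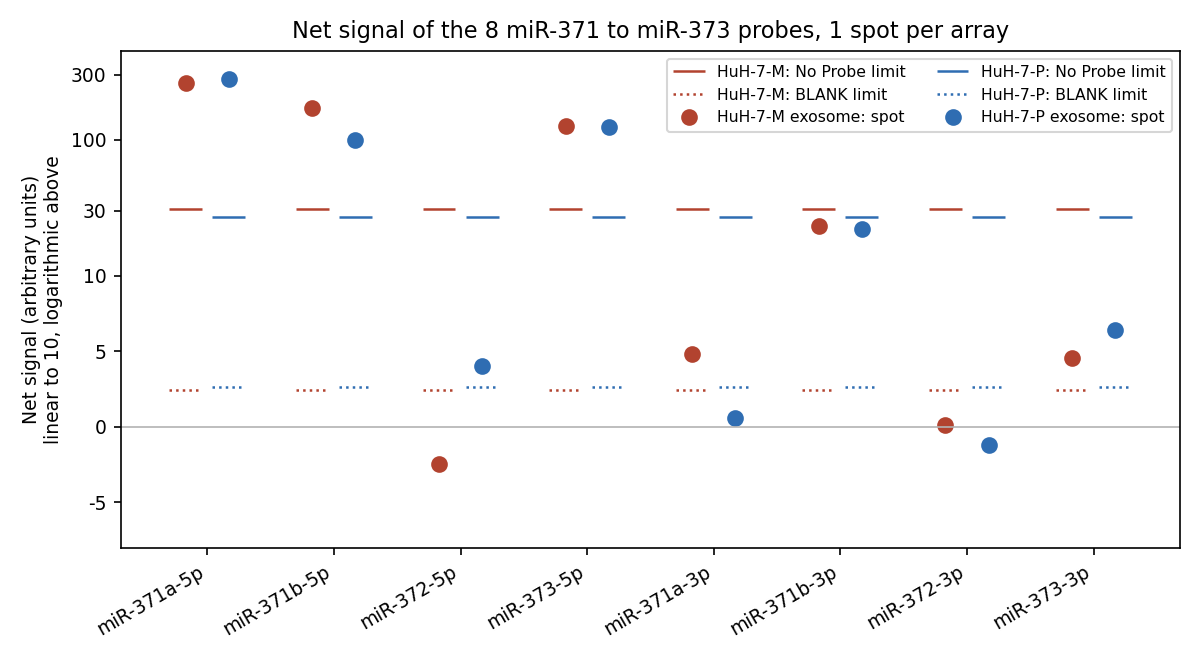
Net signal (arbitrary units, linear up to 10 and logarithmic above) of each of the 8 probes, with HuH-7-M left of HuH-7-P and 1 spot per array. Solid bars mark the No Probe limit and dotted bars the BLANK limit of that array; only miR-371a-5p, miR-371b-5p and miR-373-5p lie above the No Probe limit, and miR-371b-5p has the largest gap between the arrays among them (169 on HuH-7-M, 98.9 on HuH-7-P).

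The comparison of the cultures asks which of these miRNAs differ between the vesicles. For it, signals were corrected with normexp fitted on the BLANK spots, with an offset of 50 that pulls dim probes toward equality, and quantile normalized over all miRNA probes. No measured member differed by 2-fold: 0 of 5 reached 2-fold higher signals in HuH-7-M, against 0.439% of the 1593 measured miRNAs, and 0 of 5 at least 2-fold lower, against 1.69%. With such low shares over the array, 0 of 5 does not set the cluster apart. Their median normalized log2 difference (HuH-7-M over HuH-7-P) was 0.05 over the 5, with 3 above 0 and 2 below, and 0.01 over all measured miRNAs.

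miR-371b-5p had the highest value of the cluster, a log2 difference of 0.58. Of the 1593 measured miRNAs 47, itself included, were at least as high (2.95%), and 101 (6.34%) differed as much in either direction. Of the 790 above the No Probe limit on each array, 45 (5.70%) were at least as high. Among the 107 other measured miRNAs (a comparison chosen after the values were seen) whose mean normalized log2 signal lay within 0.25 of its own, 4 were at least as high, and the quartiles of their differences were -0.17 and 0.23. miR-373-5p was at 0.08 and miR-371a-5p at -0.07, both inside the quartiles of the miRNAs of like brightness (-0.17 and 0.25 for miR-373-5p, -0.15 and 0.28 for miR-371a-5p). miR-371b-3p was at 0.05 and miR-373-3p at -0.04. Of the measured miRNAs, 476 lay above miR-373-5p, 607 above miR-371b-3p, 1063 above miR-373-3p and 1192 above miR-371a-5p.

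Control probes give the spread that can be measured. Within an array, repeated spots of a control probe had a log2 SD of 0.15 (13 probes of 8 spots each, offset 50), or 0.21 for a difference of 2 single spots. The choice of probes with exactly 8 spots was made after the values were seen, and with all control probes of 8 to 16 spots this spread of a difference is 0.26. The value of miR-371b-5p exceeded both, and those of the other 4 measured members did not. This spread leaves out differences between cultures, preparations and arrays. S-Probe24, a control probe in the brightness range of miR-371b-5p, had net signals of 172 ± 10.5 on HuH-7-M, against 176 ± 12.6 on HuH-7-P (SD over 8 spots of 1 array), while S-Probe6 had 63.2 ± 5.88 on HuH-7-M, against 22.9 ± 2.20 on HuH-7-P. Some control probes varied more between spots of 1 array. S-Probe21 had 262 ± 62.2 on HuH-7-M, with single spots from 204 to 407, against 225 ± 16.7 on HuH-7-P. Single spots of S-Probe7 ran from 7.78 to 119 on HuH-7-P. The median log2 SD over the 13 probes was 0.08. In simulated arrays where only bright probes changed, quantile normalization shifted the differences beyond the tolerance set while unscaled values stayed within it, so the unscaled value is given too. Without scaling between arrays, 4 of the 9 S-Probe controls above the BLANK limit were higher in HuH-7-M by at least the 0.56 of miR-371b-5p on that scale, and so were 99 of the measured miRNAs (6.21%). In either direction, 145 measured miRNAs (9.10%) differed by that much. The sources used here do not say what the S-Probe controls detect.

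**Figure D2:**
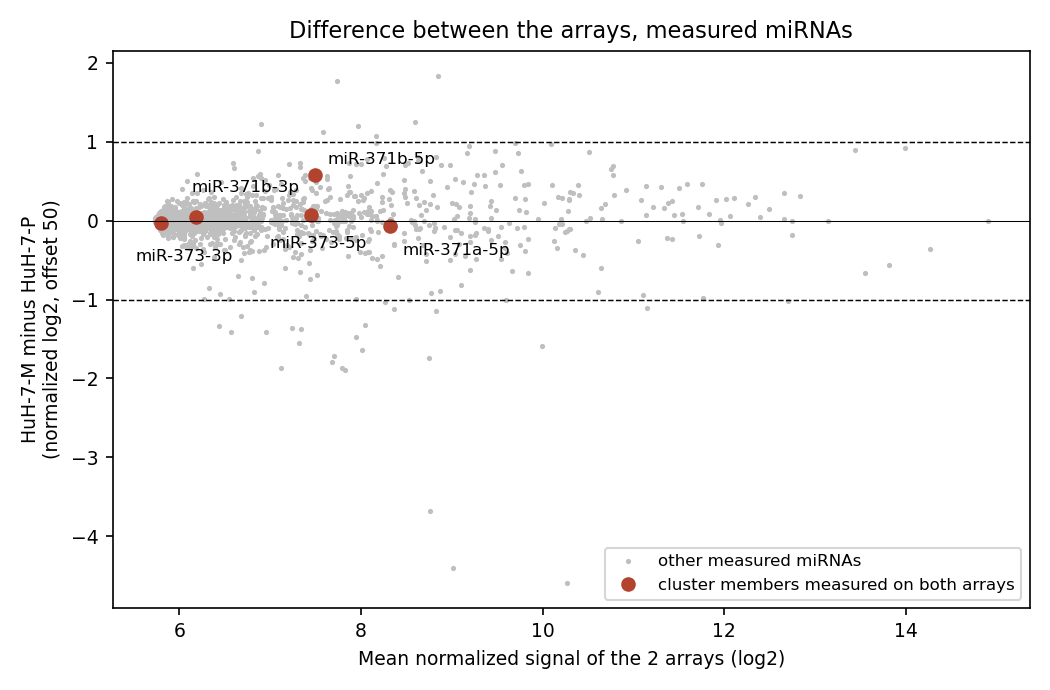
Normalized log2 difference of HuH-7-M over HuH-7-P against the mean normalized log2 signal of both arrays for the 1593 measured miRNAs (grey) and the 5 measured cluster members (red); dashed lines mark 2-fold. miR-371b-5p lies at 0.58 and the other 4 members between -0.07 and 0.08.

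The size and direction for miR-371b-5p depended on the scale. After plain subtraction of the BLANK average, without an offset, it was 0.81, and it was 0.81 in the authors' deposited values when these are assigned to the probe they can be rebuilt from. Scaled to the Spike Control spots, the arrays had a median difference of -0.58 over the measured miRNAs, with miR-371b-5p at -0.022 and the other 4 members between -0.67 and -0.55. It lay 0.56 above the median of all measured miRNAs there. The second intensity column of the scanner output, named as background, read 228 on HuH-7-M, against 141 on HuH-7-P at this spot, where the spot median was 228 on HuH-7-M, against 159 on HuH-7-P. At miR-371a-5p the column read 298 on HuH-7-M, against 277 on HuH-7-P, with spot medians of 319 on HuH-7-M, against 339 on HuH-7-P. At miR-373-5p it read 167 on HuH-7-M, against 179 on HuH-7-P, with spot medians of 185 on HuH-7-M, against 183 on HuH-7-P. The column thus followed the spot at these bright probes, and subtracting it takes away most of their signal. With it as the background, the difference of miR-371b-5p was -0.037, which says little about direction.

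The name of this probe also matters. The identifiers in the authors' deposited table follow those of the scanner output for miR-371a-5p, miR-371a-3p, miR-373-5p and miR-373-3p. For miR-371b-5p, miR-371b-3p and miR-372-5p the values rebuilt from the scanner output stand 2 rows before the identifier's own row. Under the identifiers as the authors' deposited table gives them, miR-371b-5p would read 35.4 on HuH-7-M, against 32.9 on HuH-7-P, a log2 ratio of 0.10. miR-372-5p would read 1581 on HuH-7-M, against 1050 on HuH-7-P (0.59) and miR-371b-3p would be blank on both. The files do not state which names are right, and the scanner's names are used here.

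**Figure D3:**
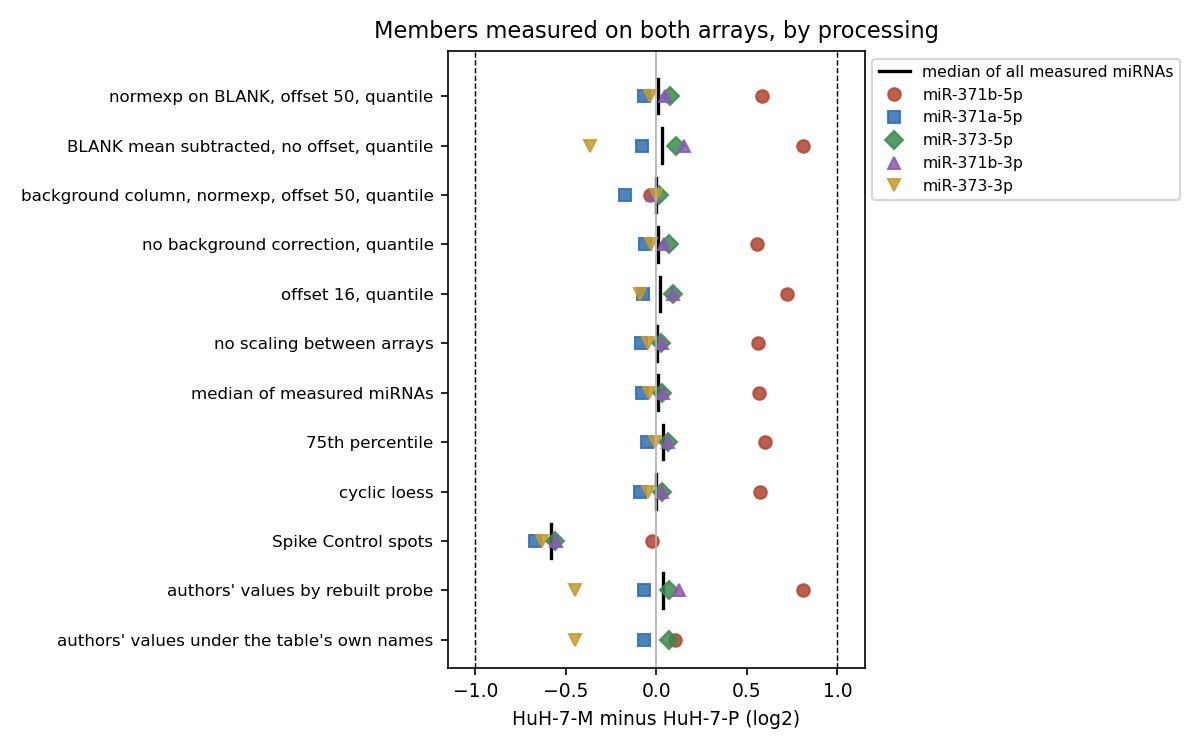
Log2 difference of HuH-7-M over HuH-7-P for the 5 members measured on both arrays under each background correction and scaling, with the median of all measured miRNAs as a black bar where it was computed and dashed lines at 2-fold. No member passes 2-fold under any of them; miR-371b-5p lies apart from the others except with the background column and under the deposited table's own names.

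Sequence composition went with signal over the whole array. The share of probes above the No Probe limit on each array was 0 of the 329 miRNAs with a GC content from 30% to under 40%, 7.06% of 524 from 40% to under 50%, 29.5% of 681 from 50% to under 60% and 64.1% of 421 from 60% to under 70%. It was 86.2% of the 269 miRNAs that hold GGGG and 22.9% of the 1984 that do not (1 strand, counted after the values were seen). Probe and target composition and the amount of RNA were not separated here, and their part in the signal was not tested.

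In this setting the members fell as follows. miR-371a-5p (GC 55.0%) and miR-373-5p (54.5%) each hold a run of 5 G, visible in the sequences above, and exceeded the No Probe limit. miR-371b-5p has a GC content of 45.5% and no run of G longer than 2. Of 503 other miRNAs with a GC content from 40% to under 50% and no GGGG, 30 (5.96%) exceeded that limit on both arrays, as miR-371b-5p did. miR-373-3p (47.8%) holds GGGG and lay just above the BLANK limit, whereas 50 of 70 other miRNAs with GGGG and a GC content from 40% to under 60% exceeded the No Probe limit. miR-371b-3p had the highest GC content of the cluster (56.5%) and stayed below the No Probe limit on both arrays. Of 563 other miRNAs within 5 percentage points of its GC content, 37.5% exceeded it on both. miR-371a-3p and miR-372-3p (47.8% each) and miR-372-5p (43.5%) were at or near the BLANK level.

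**Figure D4:**
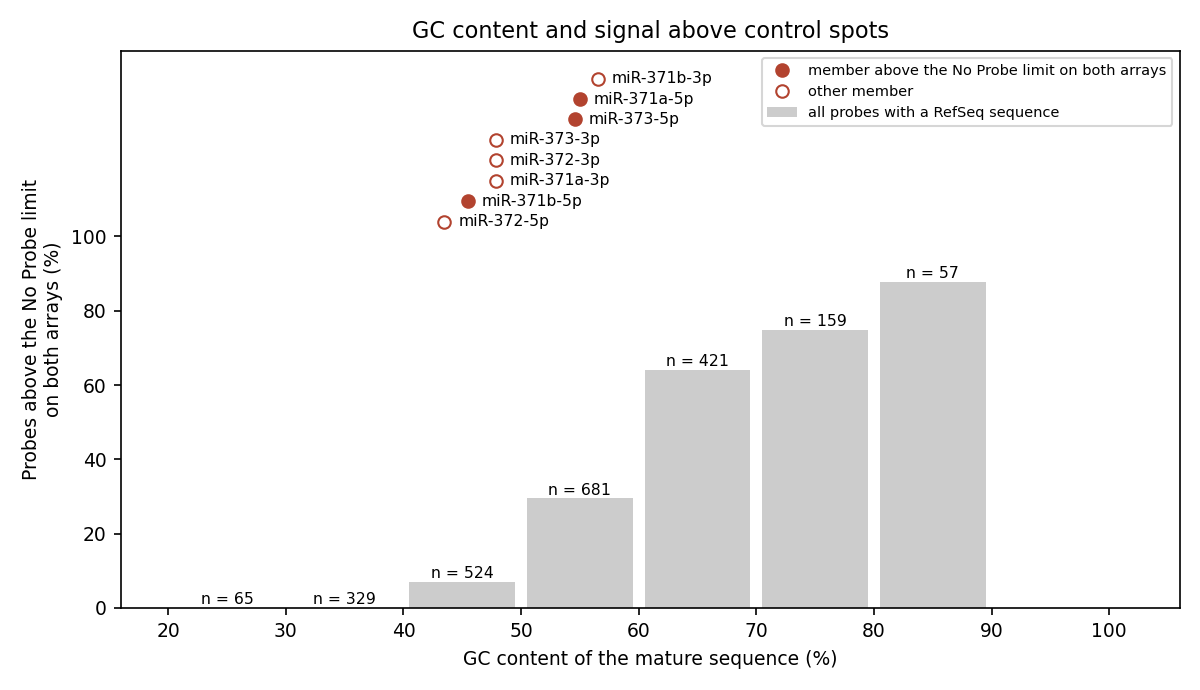
Share of probes above the No Probe limit on each array (bars, %) by GC content of the mature sequence in steps of 10 percentage points, n above each bar. Bars cover those of the 2253 probes with a RefSeq sequence whose GC content lies from 20% to under 90%. Circles above the bars mark the GC content of each cluster member (their height has no meaning); the filled ones, miR-371b-5p, miR-373-5p and miR-371a-5p, exceeded the limit on both arrays.

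No relative by seed exceeded the No Probe limit on either array. Besides the members, 9 probes matched by name have the full seed of a member: miR-302a-3p, miR-302b-3p, miR-302c-3p, miR-302d-3p and miR-302e, miR-520a-3p, miR-520c-3p and miR-520d-3p of the placental cluster that precedes this one on chromosome 19, and miR-616-5p. Of these, 1 was measured, against 62.1% of all miRNA probes. The other 8 were above the BLANK limit on neither array, as were 818 of all 2565 probes. These shares over the array are not matched for GC content, which is 39.1% in miR-302a-3p, 40.9% in miR-616-5p and 45.5% in miR-520a-3p. Of all miRNAs with a GC content from 30% to under 40%, 5.78% were measured, and 44.1% of those from 40% to under 50%. miR-520a-3p, the probe measured, had net signals of 4.00 on HuH-7-M, against 4.13 on HuH-7-P (log2 difference 0.00). miR-616-5p, the only other matched miRNA with the CUCAAA core, had -0.835 on HuH-7-M, against -5.46 on HuH-7-P. The 26 miRNAs with AAGUGC in the first 8 bases include 4 members and also miR-17-5p and its paralogs. None of the 26 passed the No Probe limit on each array, against 30.5% of the 2253 matched miRNAs. Of the 26, 12 were measured, against 62.1% of all miRNA probes. The shares set beside the 26 are not matched for GC content either. RefSeq also gives the seed of miR-372-3p to miR-520b-3p and miR-520e-3p. The scanner output has probes named miR-520b and miR-520e with no arm, and the tables used here do not settle which arm they detect. The miR-520b probe had a net signal of 15.5 on HuH-7-M, against 13.7 on HuH-7-P (log2 difference 0.05). The miR-520e probe had 11.6 on HuH-7-M, against 22.1 on HuH-7-P (-0.21). Both were measured, so 3 of 11 relatives were measured if these probes detect the 3p arms.

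The cluster of miR-302 and miR-367 on chromosome 4 keeps company with the miR-371 to miR-373 cluster in pluripotent cells. It had 2 of 10 probes measured, against 62.1% of all miRNA probes. Both were 5p arms, and neither passed 2-fold. Among the 1593 measured miRNAs, 0.439% passed 2-fold toward HuH-7-M and 1.69% toward HuH-7-P, so this does not set the 2 apart. Only 1 of the 10 probes exceeded the No Probe limit on each array, against 30.8% of all. Neither this share nor the 62.1% is matched for GC content. miR-302c-5p had a net signal of 109 on HuH-7-M, against 135 on HuH-7-P (log2 difference -0.17), and was the only one above the No Probe limit on each array. Its sequence holds a run of 5 G, like miR-371a-5p and miR-373-5p, and is shown for that comparison.
hsa-miR-302c-5p: uUUAACAUggggguaccugcug
miR-302d-5p had 6.68 on HuH-7-M, against 10.9 on HuH-7-P (-0.10). The defining miRNAs of pluripotent cells, miR-302a-3p to miR-302d-3p and miR-367-3p, were above the BLANK limit on neither array in 5 of 5 cases, against 818 of all 2565 miRNA probes. Their summed net signals were -8.58 on HuH-7-M, against -12.9 on HuH-7-P. All 5 are among the 10 probes already counted, and the miR-302 3p arms are also among the seed relatives, so this is no separate observation. In both clusters the probes above the No Probe limit were 5p arms, though for miR-302 and miR-367 this was 1 of 10 probes. Over the whole array, 36.5% of probes named 5p and 23.8% of those named 3p passed that limit on each array.

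For the labelled cell type, all 4 hepatocyte miRNAs listed were measured, against 62.1% of all probes, and 2 were above the No Probe limit on each array, with summed net signals of 140 on HuH-7-M, against 111 on HuH-7-P. miR-122-5p, the main miRNA of hepatocytes, had 67.7 on HuH-7-M, against 39.98 on HuH-7-P, which makes up most of the gap between the sums. miR-885-5p had 36.9 on HuH-7-M, against 29.8 on HuH-7-P. The other two were lower on HuH-7-M: miR-192-5p had 24.0 on HuH-7-M, against 27.8 on HuH-7-P, and miR-194-5p had 10.8 on HuH-7-M, against 13.8 on HuH-7-P. The 3 blood and serum miRNAs listed were also measured, none above the No Probe limit on each array, with sums of 47.4 on HuH-7-M, against 51.0 on HuH-7-P. Being measured thus does not tell these lists apart, and their part in the signals of the cluster was not tested.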

How the data were processed

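Exosome RNA of HuH-7-M and HuH-7-P was labelled with Cy5 using the 3D-Gene kit, per the labels' protocols, and measured on 1 array each. The deposited scanner output holds a median intensity of the spot and one named as background for 3200 spots, per the file headers. A second deposited file is a value table of intensity on a scale for which the sources used here name no software. The members' values in it could be rebuilt as the spot median minus the trimmed BLANK mean, divided by its median over miRNA probes above the BLANK limit and multiplied by 25.

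Computed here were net signals, limits from the BLANK and No Probe spots, and normalized values: normexp on the BLANK spots (nec, offset 50), log2 and quantile normalization over the miRNA probes (limma 3.58.1, R 4.3.3). On simulated data the known changes, as shrunk by the offset of 50, were recovered within tolerance where dim and bright probes changed. The full simulated folds were not the values compared. Both simulated arrays were made from the HuH-7-P spots, with as many changes up as down and no difference in scale between the arrays. They therefore do not show how quantile normalization handles such a difference. An earlier simulation that changed bright probes only missed the tolerance under quantile normalization, and the probes simulated were then widened; both are kept. The precision is limited by the number of arrays, 1 per culture, and by 1 spot per probe. Quantile normalization on the log2 rather than the linear scale, the control probes behind the spot spread, the windows of like brightness, the miR-520 probes named without an arm and the GGGG sets were chosen after seeing values. The members, the lists and the size threshold of 2-fold were chosen with earlier results of these data known. All members were named, and of the related lists those above the No Probe limit on each array or past 2-fold; marker miRNAs, miR-302d-5p, miR-616-5p and miR-520 probes are named besides. A likeness of pattern cannot be measured over 2 arrays. Alternatives varied the background, offset, scaling, filter and source of values.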

Additional observations from a re-analysis of the deposited data

How the results depend on the processing

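Of 117 values recomputed under other settings for the members and both related lists, 98 stayed within the spread given by control spots (0.21) or, for counts, within 1.5 times, and 19 moved; with the wider spread of 0.26, 17 moved. The counts of members at least 2-fold higher or lower stayed at 0 in every setting run. Scaling to the Spike Control spots moved nearly everything down with the median of all measured miRNAs (-0.58): miR-371a-5p to -0.67, miR-371b-5p to -0.022, miR-373-5p to -0.56, miR-371b-3p to -0.55, miR-373-3p to -0.63, the median of the measured members to -0.56, the single measured seed relative matched by name to -0.59 and the cluster of miR-302 and miR-367 to -0.74. Without an offset, miR-371b-5p was at 0.81, miR-373-3p at -0.36 and the median of miR-302 and miR-367 at -0.45. In the authors' values by rebuilt probe these were 0.81, -0.45 and -0.47, and under the deposited table's own names, an alternative added after seeing the data, miR-371b-5p was at 0.10 and miR-373-3p at -0.45. With the background column, which lay close to the spot median at this probe, miR-371b-5p was at -0.037. The number of members above background on both arrays was 5, against 3 with the No Probe limit. With no filter all 8 were kept by construction, which is not a count above background, though it is among the values that moved. No paired analysis was possible because each group has 1 array. Signal over background limits 5 of the 8 members, which lie within or below the range of the No Probe spots.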
